A study of Mus musculus with 8 samples.

Results

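The genes described here were chosen by name: the rows for Bcl2, Bcl2l1, Mcl1, Bcl2a1a, Bcl2a1b, Bcl2a1d, Bcl2l11, Bax, Bak1 and Pmaip1, 10 of the 52550 genes in each expression table. All 10 were found, and all 10 were above 0 in every library. Bone marrow of untreated C57BL/6J mice, either wild type (WT) or knockout for the lactoferrin gene Ltf (Lf-/-), was sorted by flow cytometry into cells of 2 early B lineage stages, pre-pro-B and pro-B, and their RNA was sequenced to learn how loss of lactoferrin alters expression. At the pre-pro-B stage 2 libraries of each genotype were used, and at the pro-B stage 1 WT and 2 Lf-/- libraries; another sample of WT pro-B cells was not used here. No cell type restriction of the knockout is named, and the age of the mice is not given in the sources used here. Each group is described as 3 mice but labelled as 2 samples, and whether a library holds 1 mouse or several is not stated. Each value is an FPKM, the fragments of a gene relative to its transcript length and to the fragments of the library, so levels can be set side by side between genes.

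The BCL2 family sets whether a cell releases cytochrome c from its mitochondria and dies. Pro-survival members (Bcl2, Bcl2l1 which encodes BCL-XL, Mcl1 and the Bcl2a1 genes which encode A1) hold in check the pore-forming effectors Bax and Bak1, while BH3-only members such as Bcl2l11 (BIM) and Pmaip1 (NOXA) bind the pro-survival proteins and free the effectors. Early B cell progenitors depend on MCL1, and BIM is a main killer of lymphocytes that fail selection or lose cytokines. Much of this control acts on the proteins, which were not measured here.

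Ltf itself separated the genotypes, with 2143, 2731 and 2650 FPKM in the WT libraries and between 88.2 and 168 FPKM in the Lf-/- libraries. The labelled cell type was checked against marker genes, and the libraries hold a large neutrophil signal. The 19 matched genes of a neutrophil granule list, led by S100a8 and S100a9, took 39.2% to 53.2% of the summed FPKM in WT libraries and 25.5% to 39.7% in Lf-/- libraries. The 18 genes of an early B lineage list, led by Cd79a and Cd79b, summed to 440 to 952 FPKM in WT and 1977 to 4059 FPKM in Lf-/- libraries, and 10 mature B cell genes to 53.6 to 79.7 and 201 to 484 FPKM. Early B lineage genes were therefore present in every library but at 0.0527% to 0.487% of it, and both B cell lists differed between the genotypes without overlap. The second Lf-/- pre-pro-B library stood apart: 12172 genes were above 0 in it against 19477 to 20250 in the others, and its median distance from its replicate, 0.88 on the log2 scale, exceeded the 0.26 and 0.32 of the other replicate pairs. Depth read from the steps between low values was 10900000 to 15400000 fragments in the other 6 libraries and could not be read in that one. In bulk RNA, fewer cells of a type and less RNA per cell cannot be told apart, and this holds for every value below.

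**Figure D1:**
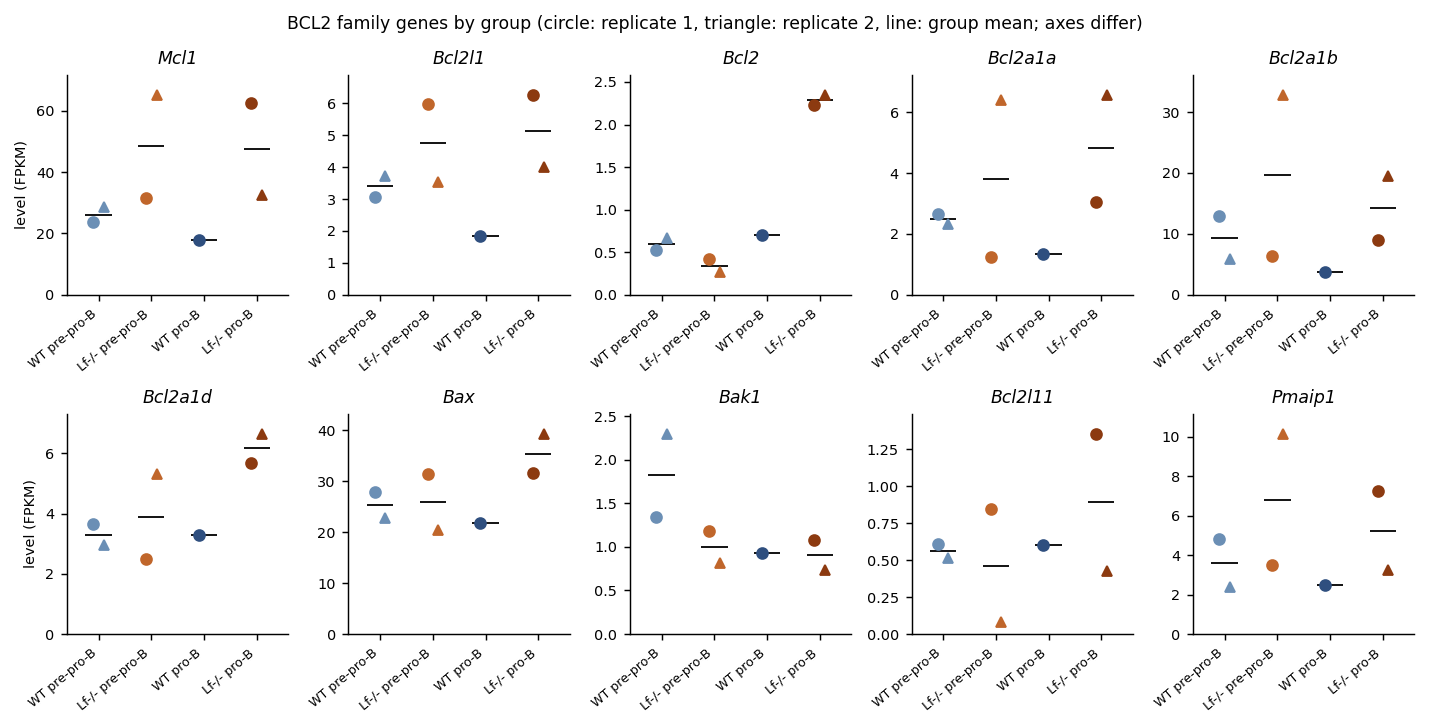
Level in FPKM (vertical axes, which differ between genes and start at 0) of the 10 BCL2 family genes in the 4 groups; circles are replicate 1, triangles replicate 2 and lines group means. Mcl1 reached 65.3 FPKM and every Lf-/- value lay above every WT value, while Bcl2 stayed under 1 FPKM outside the Lf-/- pro-B group.

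Mcl1 and Bax were the most abundant pro-survival and pro-death member in every library. Mcl1 supplied 45.4% to 70.4% of the summed FPKM of the 6 pro-survival members, and Bax 64.9% to 89.9% of that of the 4 pro-death members. In the order of group means, Mcl1 led at the pre-pro-B stage (26.0 FPKM in WT, 48.4 FPKM in Lf-/-) and in Lf-/- pro-B cells (47.5 FPKM), and Bax led in the WT pro-B library (21.7 against 17.8 FPKM). Within the WT pre-pro-B group and within the Lf-/- pro-B group the values of Mcl1 and Bax overlapped. Bcl2a1b held the third place in all 4 groups, and Bcl2 and Bcl2l11 took the last 2 places in 3 of them. In Lf-/- pro-B cells Bcl2 took the eighth place, above Bak1 and Bcl2l11, and its values there did not overlap those of Bak1.

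The genotypes were compared on log2(FPKM + 1), a scale on which the added 1 shrinks the differences of weakly expressed genes. For the pre-pro-B stage (2 WT, 2 Lf-/-) and for both stages together (3 WT, 4 Lf-/-, with stage in the model) limma was fitted to every gene that reached 1 FPKM in 2 or more of the libraries compared. An adjusted p (Benjamini-Hochberg) under 0.05 counts as a call, and the unadjusted p under 0.05, the threshold of the study's methods, is given beside it. The single WT pro-B library allows no replicate check, so in pro-B cells a difference is counted without a test where it reached 2-fold, a difference of 1 on this scale, and the pair of Lf-/- values did not straddle the WT value. Because it is not stated how the mice were divided over the libraries, the p-values measure the spread between these libraries, which may be technical.

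Mcl1, located at chr3:95658788-95663176 on the plus strand (GRCm38, as for all coordinates here), encodes a short-lived pro-survival protein. At the pre-pro-B stage its level was 23.6 and 28.5 FPKM in WT and 31.5 and 65.3 FPKM in Lf-/- mice, and at the pro-B stage 17.8 FPKM in WT and 62.5 and 32.5 FPKM in Lf-/- mice. All 4 Lf-/- values were thus above all 3 WT values, although the replicates of each Lf-/- pair differed about as much as the genotypes did, by 1.03 and 0.92 on the log2 scale. Over both stages the level was higher in Lf-/- cells by 0.99 ± 0.38 (SE) on the log2 scale, with an unadjusted limma p of 0.0276 and an adjusted p of 0.632. This was the only member past the unadjusted threshold among 8 tested, and 7.17% of all 10793 genes tested passed it. Bcl2l11 did not pass the filter, and Bcl2, which passed it only through the Lf-/- pro-B libraries, is not counted. No member passed the adjusted threshold, which 0.185% of all genes tested (20 genes) did. An exact two-sided permutation test of Mcl1 over the 35 assignments of genotype to libraries gave p = 0.0571, the smallest that 3 against 4 libraries allow. Every Lf-/- value lay above every WT value in 9.87% of the genes tested, and below in 1.13%.

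Mcl1 stayed higher in Lf-/- cells under all 15 alternative settings, but its unadjusted p was under 0.05 in 9 of them. It was 0.161 without the WT pro-B library, 0.0663 without WT pre-pro-B replicate 1, 0.0736 without Lf-/- pre-pro-B replicate 2 and 0.0725 without Lf-/- pro-B replicate 1. Scaling each library by the median ratio of its genes, which moved the median difference of all genes over both stages from 0.21 to -0.06, gave a difference of 0.64 for Mcl1 with an unadjusted p of 0.0560. The Mcl1 level also moved with the marker lists: the library with the lowest neutrophil granule share (25.5%) had the highest Mcl1 value and the library with the highest share (53.2%) the lowest. The highest early B lineage sum of all (4059 FPKM) was in Lf-/- pre-pro-B replicate 1, which had the lowest Mcl1 value of the Lf-/- libraries, 31.5 FPKM. The part of cell composition in the Mcl1 difference was not tested.

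**Figure D2:**
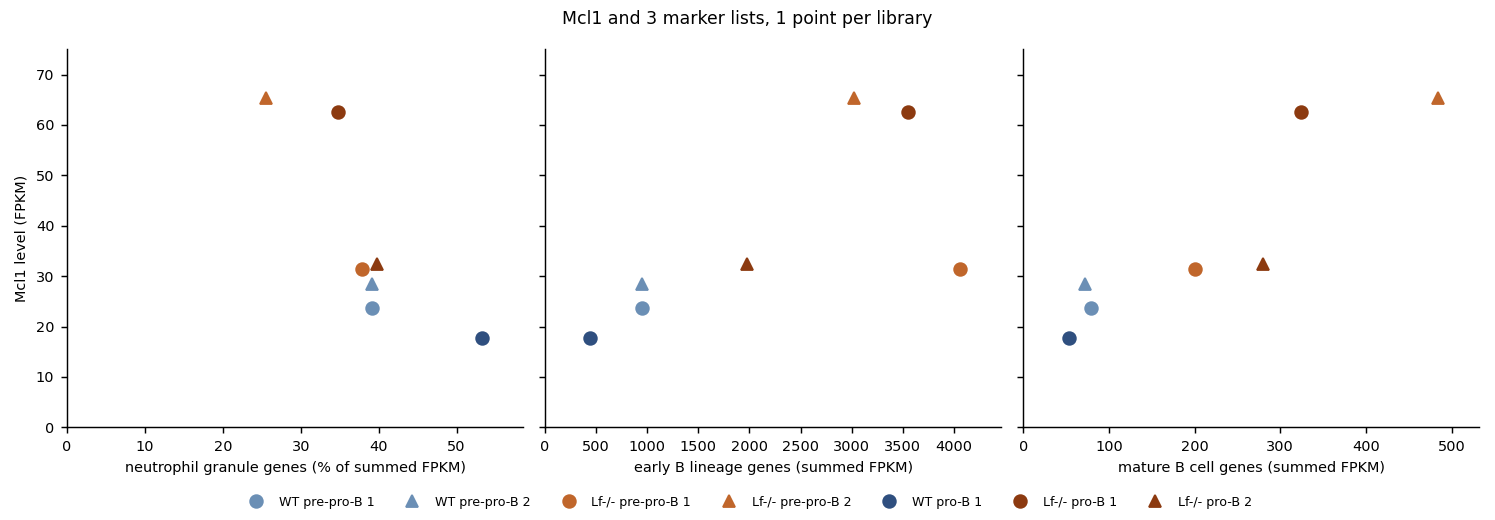
Mcl1 level in FPKM (vertical axis) against the neutrophil granule share of the summed FPKM in percent, the early B lineage sum and the mature B cell sum in FPKM, 1 point for each of the 7 libraries. WT libraries sit at the low end of both B cell lists and at 17.8 to 28.5 FPKM of Mcl1, and the Lf-/- libraries at 31.5 to 65.3 FPKM.

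Bcl2l1 (chr2:152780668-152831728, minus strand) encodes BCL-XL, the pro-survival protein that erythroid and lymphoid progenitors use. Pre-pro-B cells had 3.06 and 3.72 FPKM in WT against 5.99 and 3.54 FPKM in Lf-/- mice, and pro-B cells 1.85 FPKM in WT against 6.27 and 4.0 FPKM in Lf-/- mice. The groups overlapped in pre-pro-B cells and did not in pro-B cells. The difference was 0.36 ± 0.48 in pre-pro-B cells (adjusted p = 0.943) and 0.65 ± 0.34 over both stages (adjusted p = 0.689). The 8 erythroid marker genes took 1.93% to 7.03% of the summed FPKM in WT libraries and 3.56% to 15.2% in Lf-/- libraries. The library with the highest share, Lf-/- pre-pro-B replicate 2, had 3.54 FPKM of Bcl2l1. The library with the lowest share, WT pre-pro-B replicate 2, had 3.72 FPKM. The part of erythroid cells in the Bcl2l1 levels was not tested.

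Bcl2 (chr1:106538178-106714274, minus strand), the founding member of the family, was low everywhere except in Lf-/- pro-B cells. Pre-pro-B levels were 0.524 and 0.672 FPKM in WT and 0.417 and 0.265 FPKM in Lf-/- mice, and the WT pro-B library had 0.703 FPKM. The Lf-/- pro-B libraries had 2.23 and 2.35 FPKM, the closest replicate pair of any member at 0.05 on the log2 scale. The Lf-/- pro-B mean was 3.26 times the WT pro-B value and 6.73 times the Lf-/- pre-pro-B mean. Bcl2 reached 1 FPKM in those 2 libraries only, so it entered the fits over 7 libraries only through the group in which it is high, and was left out of the pre-pro-B fit. Its stage and genotype differences are therefore given without a test. The difference between Lf-/- and WT cells was -0.25 in pre-pro-B cells in the fit over all 7 libraries and 0.95 in pro-B cells, so the second exceeded the first by 1.20 on the log2 scale. Of all genes tested, 13.5% had both Lf-/- pro-B values above the other 5 libraries, as Bcl2 did, and 11.3% had both Lf-/- values below both WT values in pre-pro-B cells and above the WT value in pro-B cells. Of the 8 other members tested, none passed the unadjusted limma threshold between the stages, which 2.41% of all genes tested passed, or in the interaction of genotype and stage, which 2.74% passed.

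Some markers of T and NK cells were high in the same libraries as Bcl2. Of 10 such genes, 5 were higher in both Lf-/- pro-B libraries than in the other 5 libraries, as were 13.5% of all genes tested. Cd3e, a T cell receptor subunit gene, had 2.52 and 1.59 FPKM there and at most 0.562 FPKM elsewhere. Cd3g, another subunit gene, had 6.65 and 5.71 FPKM against at most 1.94 FPKM. The NK cell receptor gene Ncr1 had 6.93 and 6.78 FPKM against at most 1.81 FPKM, Klrb1c 7.46 and 2.38 FPKM against at most 0.836 FPKM, and the perforin gene Prf1 2.48 and 1.02 FPKM against at most 0.759 FPKM. The other 5 genes of the list overlapped, among them Nkg7, the most abundant (324 to 1283 FPKM). Without Nkg7 the list summed to 77.9 and 90.2 FPKM in that group and to 7.32 to 99.9 FPKM in the remaining libraries, the highest in the second Lf-/- pre-pro-B library, where Cd3g, Cd4, Ncr1, Klrb1c and Prf1 were listed at 0. Genes of other lists were also highest in both Lf-/- pro-B libraries. Among basophil, mast cell and eosinophil genes these were Mcpt8, Prss34 and Cpa3, while Ms4a2, Epx, Prg2 and Prg3 overlapped. Mcpt8 had 855 and 580 FPKM there against at most 211 FPKM, and Prss34 2095 and 1536 FPKM against at most 346 FPKM. So were Mmp8, Mmp9 and Retnlg of the neutrophil granule list and Vpreb1, Igll1 and Bst1 of the early B lineage list. The same held for Fcer2a and Fcrl1 of the mature B cell list. It also held for Klk1 of a plasmacytoid dendritic cell list and Itga2b of a megakaryocyte and platelet list. Most genes of each of these lists did not show it. The part of any of these cells in the Bcl2 level was not tested.

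Bcl2a1a (chr9:88956900-88962419, plus strand), Bcl2a1b (chr9:89199209-89207827, plus strand) and Bcl2a1d (chr9:88723285-88731914, minus strand) are duplicated copies that encode A1, a pro-survival protein of blood cells. Their coding parts are 519 bases each and differ at 12 positions, so a fragment from a shared stretch cannot be assigned to one copy; the longest stretch shared by a pair of transcripts was 217 to 314 bases. The first 60 coding bases hold 6 of the 12 differing positions, which are in capitals, and are shown as the coding stretch of that length with the most differing positions. The parts of the transcripts outside the coding sequence were not searched for such a stretch. They lie in the first exon of each gene, at chr9:88957051-88957110, chr9:89199360-89199419 and chr9:88731660-88731719.
Bcl2a1a: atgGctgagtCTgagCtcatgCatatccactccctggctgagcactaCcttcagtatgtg
Bcl2a1b: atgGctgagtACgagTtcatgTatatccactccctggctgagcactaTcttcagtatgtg
Bcl2a1d: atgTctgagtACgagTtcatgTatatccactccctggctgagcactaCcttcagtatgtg
Coding identity was 97.9% between Bcl2a1a and Bcl2a1b, 98.7% between Bcl2a1a and Bcl2a1d and 98.8% between Bcl2a1b and Bcl2a1d. How the authors' counting shared such fragments is not given in the sources used here, so the split among the copies is uncertain and their sum is the firmer value. Bcl2a1b also shares its strand with the overlapping gene model Gm29094.

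The 3 copies summed to 19.2 and 11.1 FPKM (WT) and 10.1 and 44.6 FPKM (Lf-/-) at the pre-pro-B stage, and to 8.4 FPKM (WT) and 17.7 and 32.7 FPKM (Lf-/-) at the pro-B stage. The Lf-/- pre-pro-B libraries therefore hold both the highest sum of all and one below both WT pre-pro-B values. The genotype difference of the sum was 0.53 ± 0.76 in pre-pro-B cells (adjusted p = 0.945) and 0.88 ± 0.52 over both stages (adjusted p = 0.689). Bcl2a1b was the largest part in every library, 44.8% to 73.8% of the sum, while Bcl2a1d made up 11.9% to 39.2% and Bcl2a1a 12.1% to 20.9%. Bcl2a1d exceeded Bcl2a1a except in the second Lf-/- pre-pro-B library, where they had 5.30 and 6.40 FPKM. Singly, Bcl2a1b had 12.9 and 5.81 FPKM (WT) and 6.42 and 32.9 FPKM (Lf-/-) among pre-pro-B libraries, then 3.76 FPKM (WT) and 9.01 and 19.5 FPKM (Lf-/-) among pro-B libraries. Bcl2a1a ranged from 1.23 to 6.58 FPKM and Bcl2a1d from 2.48 to 6.65 FPKM over the libraries. From the depth read off the steps, these levels correspond to about 11 to 83 fragments of Bcl2a1a and 43 to 245 of Bcl2a1b in the 6 libraries where depth was known. Differences over both stages were 1.06 ± 0.57 for Bcl2a1b, 0.63 ± 0.49 for Bcl2a1a and 0.37 ± 0.34 for Bcl2a1d, with limma adjusted p-values of 0.689, 0.700 and 0.728.

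**Figure D3:**
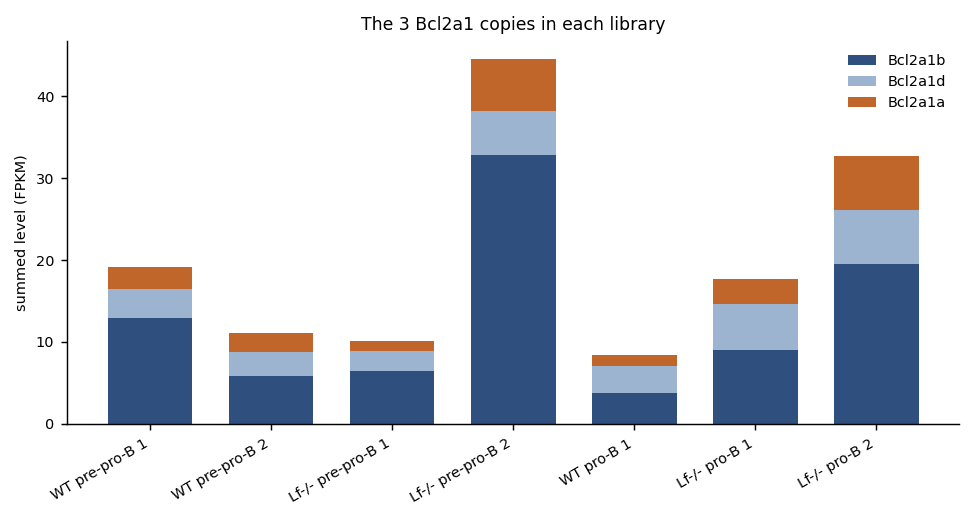
Level in FPKM of Bcl2a1b, Bcl2a1d and Bcl2a1a stacked for each of the 7 libraries; the bars start at 0 and the bar height is the sum. The tallest bar, 44.6 FPKM, is the second Lf-/- pre-pro-B library, and its replicate stands at 10.1 FPKM.

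The promoters of the copies are shown because the 3 genes are near-identical and their levels can be read only together. RefSeq entries (GRCm38.p6) were found for 9 of the 10 members. The 250 bases before each start were searched on both strands for the letters TGANTCA and TTCNNNGAA (STAT), where N is any base. TGANTCA was in all 3 Bcl2a1 promoters and in no other member's, and 6.75% of 32851 mouse promoters hold it. TTCNNNGAA, in 7.02% of all promoters, was in none of the 9. The stretches below run from 50 bases before to 40 bases after the TGANTCA letters, which are in capitals. They lie at chr9:88956750-88956846 (plus strand) for Bcl2a1a and chr9:88731918-88732014 (minus strand) for Bcl2a1d, and that of Bcl2a1b at chr9:89199059-89199155 has the same 97 letters as Bcl2a1a.
Bcl2a1a: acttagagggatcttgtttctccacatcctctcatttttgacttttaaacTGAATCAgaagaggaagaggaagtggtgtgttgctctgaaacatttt
Bcl2a1d: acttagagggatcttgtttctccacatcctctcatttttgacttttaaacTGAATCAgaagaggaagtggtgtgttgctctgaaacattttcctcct
All 50 bases before the capitals were the same in the 3 copies. A match of letters describes the sequence and says nothing of binding.

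Bax (chr7:45461697-45466898, minus strand), an effector that forms pores in the outer mitochondrial membrane, was the steadiest member, with a highest value 1.92 times its lowest. WT mice had 27.9 and 22.7 FPKM at the pre-pro-B and 21.7 FPKM at the pro-B stage, and Lf-/- mice 31.3 and 20.4 FPKM, then 31.5 and 39.3 FPKM. The genotypes overlapped in pre-pro-B cells, where the difference was 0.01 ± 0.44 (adjusted p = 0.996), and did not in pro-B cells, where it was 0.67. Over both stages it was 0.27 ± 0.31 (adjusted p = 0.767) and turned to -0.07 under median-ratio scaling.

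Bak1 (chr17:27019810-27029009, minus strand), the other effector, was the one tested member with a lower estimate in Lf-/- cells. WT levels were 1.35 and 2.3 FPKM in pre-pro-B and 0.932 FPKM in pro-B cells, and Lf-/- levels 1.19 and 0.815 FPKM, then 1.07 and 0.739 FPKM. Both Lf-/- pre-pro-B values lay below both WT pre-pro-B values, and the pro-B values overlapped. The differences were -0.48 ± 0.47 in pre-pro-B cells (adjusted p = 0.941) and -0.30 ± 0.30 over both stages (adjusted p = 0.744). Bax exceeded Bak1 by 9.90 to 53.2 times, least in the second WT pre-pro-B library and most in the second Lf-/- pro-B library.

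The BH3-only member Bcl2l11 (chr2:128126038-128162547, plus strand) was under 1 FPKM in 6 of the 7 libraries. Pre-pro-B cells had 0.609 and 0.517 FPKM (WT) and 0.843 and 0.0807 FPKM (Lf-/-), and pro-B cells 0.605 FPKM (WT) and 1.36 and 0.430 FPKM (Lf-/-). Within each Lf-/- pair the replicates lay on either side of the WT values. It did not pass the filter on low values, and without that filter its difference over both stages was -0.01 ± 0.32.

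Pmaip1, on chromosome 18, encodes NOXA, a BH3-only protein that binds MCL1. Levels at the pre-pro-B stage were 4.8 and 2.4 FPKM in WT against 3.48 and 10.2 FPKM in Lf-/- mice, and at the pro-B stage 2.5 FPKM against 7.24 and 3.26 FPKM. Replicate 2 of Lf-/- pre-pro-B cells again had the highest value, followed by Lf-/- pro-B replicate 1, the same libraries that were highest for Mcl1. The groups overlapped in pre-pro-B cells. Differences were 0.67 ± 0.63 in pre-pro-B cells (adjusted p = 0.941) and 0.71 ± 0.43 over both stages (adjusted p = 0.690).

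Counted together in pre-pro-B cells, 7 of the 8 members tested had a higher estimate in Lf-/- cells and 1 a lower one. A higher estimate was found for 52.0% of all genes tested. The members with a higher one were 5 under median-ratio scaling, 4 under quantile normalization and 5 of 6 with the Bcl2a1 copies summed. None of the 8 passed limma's unadjusted threshold, which 284 of 9720 genes (2.92%) did, or the adjusted one, which 0% did. The lowest unadjusted p was that of Mcl1, 0.172, with a difference of 0.79 ± 0.50. Among the 8, Mcl1 alone had both Lf-/- values above both WT values (15.5% of genes tested) and Bak1 alone had both below (17.7% of genes tested), as had Bcl2, which did not pass the filter there. The median difference of the 8 members was 0.29, and that of all genes tested was 0.03. Without Lf-/- pre-pro-B replicate 2, the library that stood apart, the median of the members was -0.14, and Bcl2a1a (-0.64), Bcl2a1b (-0.39) and Bcl2a1d (-0.30) were lower in the remaining Lf-/- library. Without Lf-/- pre-pro-B replicate 1, 4 of the 8 members (Mcl1, Bcl2a1a, Bcl2a1b and Pmaip1) passed limma's unadjusted threshold, as did 48.3% of all genes tested in that setting, and all but Pmaip1 passed the adjusted one, as did 36.5%.

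In pro-B cells, 8 of the 10 members had both Lf-/- values above the WT value, as did 75.3% of all genes tested. The members that reached 2-fold were 4, namely Bcl2a1b (1.59), Mcl1 (1.30), Bcl2a1a (1.24) and Bcl2l1 (1.08), where 12.4% of all genes tested did. All 4 are pro-survival members, but Bcl2a1a and Bcl2a1b are near-identical copies whose split is uncertain. With the Bcl2a1 copies summed, 3 of 7 members reached 2-fold. The other pro-survival members had differences of 0.95 (Bcl2, which passed the filter only through these Lf-/- libraries) and 0.74 (Bcl2a1d). Among the pro-death members tested, Pmaip1 differed by 0.76, Bax by 0.67 and Bak1 by -0.02. The median of the 9 members was 0.95, or 0.92 without Bcl2, and that of all genes was 0.48. Scaling by the median ratio moved the latter to 0.01 and left 1 member past 2-fold, and quantile normalization left 0. The WT pro-B library had the highest neutrophil granule share and the lowest Mcl1, Bcl2l1 and Bcl2a1b values of all, so every pro-B difference of those genes rests on it. When the single library was assumed to vary like the other groups, limma over all 7 libraries gave unadjusted p-values of 0.0719 for Mcl1 and 0.0795 for Bcl2l1, each with an adjusted p of 0.822.

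**Figure D4:**
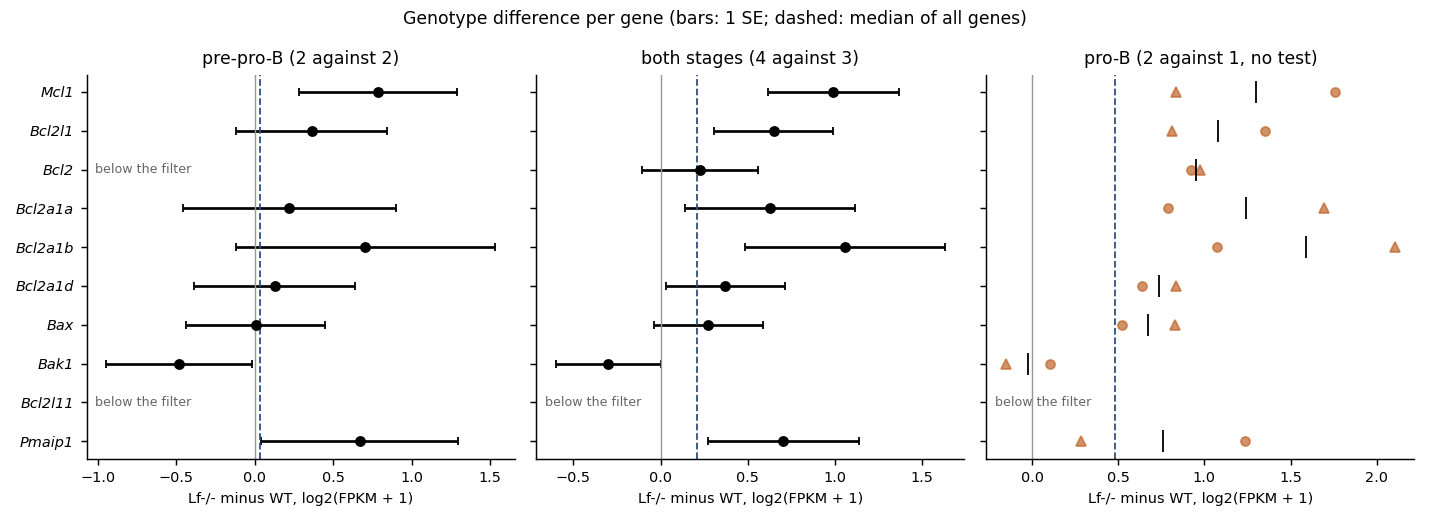
Difference between Lf-/- and WT on the log2(FPKM + 1) scale for each BCL2 family gene in pre-pro-B cells, over both stages and in pro-B cells. Bars are 1 standard error, circles and triangles in the pro-B panel are the Lf-/- replicates 1 and 2 against the WT library with their mean as a tick, and dashed lines are the medians of all genes (0.03, 0.21 and 0.48).

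The summed pro-survival members exceeded the summed pro-death members in every library. Their ratio was 1.34 and 1.57 (WT) against 1.30 and 3.61 (Lf-/-) in pre-pro-B cells, and 1.12 (WT) against 2.15 and 1.64 (Lf-/-) in pro-B cells. The Lf-/- pre-pro-B replicates held the highest ratio and one below both WT pre-pro-B values. The pro-survival sum itself ran from 28.7 to 46.4 FPKM in WT and from 48.0 to 114 FPKM in Lf-/- libraries without overlap, and the pro-death sum from 25.7 to 34.7 and from 31.5 to 43.7 FPKM with overlap. Of single genes tested, 9.87% had every Lf-/- value above every WT value. Among the members only Mcl1 did, and it supplied 45.4% to 70.4% of the pro-survival sum.

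Of 16 other BCL2 family genes, 7 were expressed enough to be tested and none passed the unadjusted limma threshold in the genotype comparison over both stages. Of these, 6 had a higher and 1 a lower estimate, and 66.8% of all genes tested had a higher one. Their median was 0.46, where the median of all genes was 0.21. The most abundant BH3-only genes were Bad (11.9 to 29.6 FPKM, difference 0.25 ± 0.36) and Bid (8.37 to 35.5 FPKM, 0.46 ± 0.47). Bnip3l, a mitophagy receptor that is abundant in erythroid cells, ranged from 14.2 to 47.5 FPKM (0.25 ± 0.43), and Bcl2l12 from 4.95 to 13.7 FPKM (0.62 ± 0.34). A further effector, Bok, was listed between 0 and 2.54 FPKM, and the remaining pro-survival genes Bcl2l2 and Bcl2a1c stayed at or under 0.157 FPKM, so the 6 members described above carried nearly all pro-survival transcripts of the family.

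Downstream of mitochondria, 10 of 12 genes were tested over both stages, and 3 passed the unadjusted limma threshold, all higher in Lf-/- cells and none by adjusted p. Of all genes tested, 7.17% passed the unadjusted threshold, and 90.3% of those were higher in Lf-/- cells. Birc3, an inhibitor of apoptosis protein, had 2.93, 2.31 and 1.54 FPKM in the WT libraries and 4.86, 10.5, 5.94 and 4.46 FPKM in the Lf-/- libraries, a difference of 1.22 ± 0.34 with an unadjusted limma p of 0.00614 and an adjusted p of 0.374. Diablo, which encodes the protein SMAC that counters such inhibitors, differed by 0.90 ± 0.36, and Parp1, a DNA repair enzyme cut by caspases, by 0.65 ± 0.28. The values of Birc3, of Diablo and of Parp1 did not overlap between genotypes, and 9.87% of all genes tested had every Lf-/- value above every WT value. The median of the 10 genes was 0.20, near the 0.21 of all genes. Of 5 matched genes that act on MCL1 turnover, 2 were tested and none passed: Ddx3x differed by 0.47 ± 0.37 and the ubiquitin ligase gene Btrc by 0.05 ± 0.36.

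**Figure D5:**
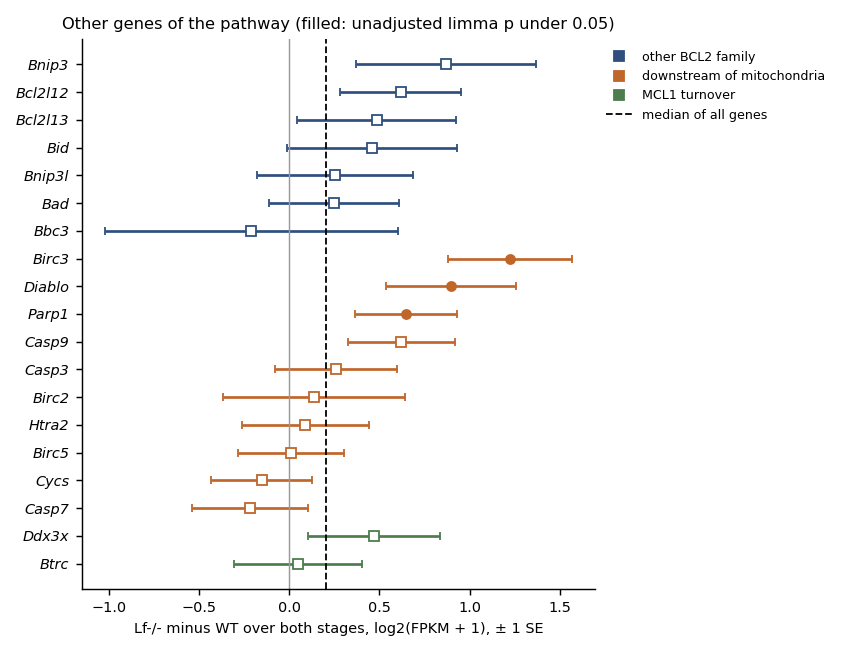
Difference between Lf-/- and WT over both stages on the log2(FPKM + 1) scale with 1 standard error for the 19 further pathway genes that could be tested; filled symbols passed the unadjusted limma threshold and the dashed line is the median of all genes. Birc3 (1.22), Diablo (0.90) and Parp1 (0.65) are the filled symbols.

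The genes most like each member across the 7 libraries were sought by the root mean square distance between centred log2(FPKM + 1) profiles, among genes of similar mean level. For Mcl1 these were Map1lc3b (0.15), which encodes an autophagosome protein, and Dnajb9 (0.20), an endoplasmic reticulum chaperone; the spread of Mcl1 itself was 0.67. Tbc1d1 (0.11) and Csrp2 (0.13) were nearest to Bcl2l1, and Cd300e (0.12) and Prss30 (0.13) to Bcl2. For the Bcl2a1 copies they were Gm16174 (0.22) and Gm5874 (0.23) with Bcl2a1a, Pop5 (0.28) and Chchd3 (0.32) with Bcl2a1b, and Zfyve21 (0.13) and Gm8069 (0.15) with Bcl2a1d. Among the pro-death members, Bax was closest to Snrnp27 (0.08) and Frg1 (0.11), Bak1 to Map2k6 and Elmo2 (both 0.13), Bcl2l11 to Vps13b (0.07) and Qk (0.08), and Pmaip1 to Inpp5k (0.11) and Ifrd1 (0.12). Between 1476 and 5744 genes were candidates for each member, and the profiles share the same libraries and composition.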

How the data were processed

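RNA from sorted pre-pro-B and pro-B cells had been sequenced on a NovaSeq instrument, and the authors deposited 1 table per library with 1 FPKM value per gene; the unit was inferred from the values. The submitters' processing notes name TopHat, Cufflinks, HTSeq, DESeq and GRCm38 without versions or roles. Groups came from the labels. Genes were matched by identifier to GENCODE M21 (52403 of 52550). The members and gene lists were chosen with earlier results of these data known.

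Values were taken as log2(FPKM + 1) and fitted with limma 3.58.1 (R 4.3.3, mean-variance trend, two-sided, Benjamini-Hochberg over all genes) after a filter of at least 1 FPKM in at least 2 libraries compared. The fits were tested on simulated data. Named beside the members were genes of further lists past an unadjusted p of 0.05 (at most 4 per list), otherwise the 2 most abundant of each list, and the 2 nearest profiles per member. Alternatives covered scaling, filter, pseudocount (0.1), replicate block, summed Bcl2a1 copies and left-out libraries. Deposited values carry no counts, so counting intervals were not computed.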

Additional observations from a re-analysis of the deposited data

Results flagged for a closer look

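Bcl2 differed in opposite directions in the 2 stages, with every library on its side: both Lf-/- pre-pro-B values (0.417 and 0.265 FPKM) lay below both WT values (0.524 and 0.672 FPKM), and both Lf-/- pro-B values (2.23 and 2.35 FPKM) lay above the WT pro-B value (0.703 FPKM). All pre-pro-B values were under 1 FPKM, the level the filter requires. The lowest, 0.265 FPKM, came from Lf-/- pre-pro-B replicate 2, the library that stood apart with 12172 genes above 0. The genotype difference in pro-B minus that in pre-pro-B cells was 1.20 on the log2(FPKM + 1) scale. The difference was not tested, since Bcl2 passed the filter on low values only through the Lf-/- pro-B libraries in which it is high. Of all genes tested, 11.3% had their values apart in the same way. No group has the 4 libraries that a test for a single distant library needs.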

How the results depend on the processing

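Counts of genes, unlike the direction of Mcl1, moved widely with the processing. In pre-pro-B cells the count past an unadjusted limma p of 0.05 (284) was 649 with no filter on low values, 528 with all 7 libraries in 1 fit and 140 to 4416 when 1 library was left out, and the count past the adjusted threshold (0) ran to 3338 (without Lf-/- pre-pro-B replicate 1, the lone Lf-/- library then being assumed to vary like the WT pair). Of the members, 0 to 4 passed the unadjusted threshold when 1 library was left out. Over both stages the unadjusted count (774) was 425 to 3033 and the adjusted count (20) 0 to 123 when 1 library was left out; the adjusted count was 7 under median-ratio scaling, 10 under quantile normalization, 12 when scaled to genes outside the neutrophil granule list, 0 with no filter, 63 with at least 1 FPKM in every library and 9 with a pseudocount of 0.1. Members past the unadjusted threshold there (1) were 0 under median-ratio scaling and quantile normalization and 0 to 5 when 1 library was left out. The 5 (Mcl1, the near-identical Bcl2a1a, Bcl2a1b and Bcl2a1d, and Pmaip1) came without Lf-/- pre-pro-B replicate 1, where 3033 of all 10581 genes tested passed. Leaving out the WT pro-B library was added after the data were seen. In pro-B cells the 2-fold count in either direction (1462) was 833 under median-ratio scaling, 833 under quantile normalization, 943 with the filter in every library, 2853 with a pseudocount of 0.1 and 1371 to 2071 without 1 Lf-/- library, and the members counted (4) were 1, 0 and, by limma over all 7 libraries, 0, and 2 to 4 without 1 Lf-/- library. Between the stages 260 genes passed (626 with no filter, 156 with the filter in every library, 139 to 1763 when 1 library was left out). Bcl2 is not counted there, since the filter admitted it only through its high values, and none of the 8 other members passed in the main fit. For the interaction 296 genes passed (139 under median-ratio scaling, 170 under quantile normalization, 1608 with no filter, 152 with the filter in every library, 195 with a pseudocount of 0.1, 90 to 2920 when 1 library was left out). Members (0) were 1 (Bcl2) with no filter and 0 to 3 when 1 library was left out. Bcl2 was in each of these member counts above 0, and no call is drawn from it, since its interaction is given without a test. The 3 came without Lf-/- pre-pro-B replicate 2, which left 1 Lf-/- library at that stage, so no call is drawn from them either. The highest unadjusted counts of both genotype comparisons by limma came without Lf-/- pre-pro-B replicate 1.

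Signs turned for small differences: in pre-pro-B cells Bax was -0.15, -0.18 and -0.10 under median-ratio scaling, quantile normalization and scaling outside the granule list, Bcl2a1d -0.016 and -0.097 under the first and second of these, and Bcl2a1a -0.067 under quantile normalization. When 1 library was left out, Bax ran from -0.29 to 0.30, Bcl2a1a from -0.64 to 1.09, Bcl2a1b from -0.39 to 1.80 and Bcl2a1d from -0.30 to 0.56. Over both stages Bax was -0.073 under median-ratio scaling and -0.071 under quantile normalization, and Bcl2 ran from -0.25 (without the WT pro-B library) to 0.39. The cause was not tested.

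Same-numbered replicates did not deviate together (r of 0.04, -0.01 and 0.05 over 10793 genes between pairs of groups), so the numbers were not taken to pair the samples. With the replicate block, 532 genes passed the unadjusted and 65 the adjusted threshold in pre-pro-B cells, 635 and 22 over both stages, and 249 (stage) and 456 (interaction) the unadjusted one; no member's call changed. Bcl2, Bcl2l11 and Bak1 lay under 1 FPKM in several libraries, and the fragments behind them were not estimated.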
